A study of Arabidopsis thaliana with 12 samples.

Results

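Of the 692 probes on the array that name exactly 1 gene of *Arabidopsis thaliana*, 75 had a mean intensity at least 2.5-fold higher in the *stn8* mutant than in the wild type (WT). These 75 genes were chosen from the deposited intensities themselves. A gene was taken if its probe was above 0 on all 12 arrays, its mean over the stn8 arrays was at least 0.3, and the ratio of its stn8 mean to its WT mean was at least 2.5. A further 4 named genes met the same thresholds (NdhS, RPL17, Cpn60beta3 and CML41) and were set aside by name. Because the stn8 and WT values chose the genes, their levels are described here without a test.

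The study measured total RNA on 12 expression arrays, 6 of the stn8 mutant and 6 of the WT, which is ecotype Columbia 0. The group came from each sample's title, since the source field gives the WT ecotype for all 12 samples. The sources used here give no mutant allele, tissue, age, growth conditions or array type, and nothing in them says that the arrays of a group came from separate plants. Any p-value below therefore measures the spread between these arrays only, which may be technical.

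STN8 is a serine/threonine kinase bound to thylakoids. It adds phosphate to core subunits of photosystem II, while its relative STN7 acts mainly on the light-harvesting antenna during state transitions, the shifts of antenna between the photosystems. Signals from the chloroplast are known to alter the expression of nuclear genes for plastid proteins. The genes described here are all nuclear. They encode proteins of the thylakoid lumen and of lipid droplets in plastids, factors for organelle transcripts, receptors and kinases, trafficking and cell wall proteins, transporters and metabolic enzymes. Neither STN8 nor STN7 was named by a probe, so the labels could not be tested against the mutated gene. AT3G12000, listed as a marker of the stigma, was the 1 gene with its own probe among 27 tissue markers. It had the highest ratio of the genes described here, 28.7. With this marker alone the tissue could not be checked either, and whether the groups differed in tissue was not tested. In such bulk RNA, fewer cells of a type and less RNA per cell cannot be told apart.

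Many probes differed between the groups. In limma's moderated test on quantile-normalized log2 values, 70.4% of 3437 probes passed an adjusted p of 0.05 (Benjamini-Hochberg), and 34.7% passed as higher in stn8. Among the 692 named probes these shares were 70.8% and 40.2%. The thresholds that chose the genes were met by 10.9% of all probes and by 11.4% of the named ones. They were met by 10.7% of the 869 probes that name several genes and by 10.8% of the 1876 probes that the annotation does not list. Turned the other way (WT mean at least 0.3, WT over stn8 at least 2.5), the same thresholds were met by 8.2% of all probes and by 5.2% of the named ones. Across the 3079 probes above 0 on all arrays, Pearson's r of log2 intensity was 0.964 to 0.986 between stn8 arrays, 0.928 to 0.983 between WT arrays and 0.690 to 0.734 between the groups. The lowest r within WT, 0.928 to 0.943, were those of arrays 5 and 6 with arrays 1 to 4, while arrays 1 to 4 had at least 0.971 with each other. Whether spot numbers mean the same spot in both groups was checked over all probes and in windows. The group means correlated across probes at r = 0.839 at the same spot number and at most 0.136 at any shift of up to 60 spots, and the same spot gave the highest r in 46 of 46 windows of 100 spot numbers and in 88 of 92 windows of 50. Over probes above 0 on all arrays, r at the same spot was 0.734.

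Probes differ in how strongly they bind, so the level of one is not set against that of another, and the next values only describe the range. The median over the 75 genes of the mean intensity was 1.57 in stn8 and 0.291 in WT, and over all probes it was 0.342 in stn8 and 0.336 in WT. A mean above 1 was seen for 43 genes in stn8 and for 7 in WT, and a mean above 10 for 7 genes in stn8 and for 0 in WT. These differences between the groups follow from the choice of genes, which required a ratio and a minimum in stn8.

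**Figure D1:**
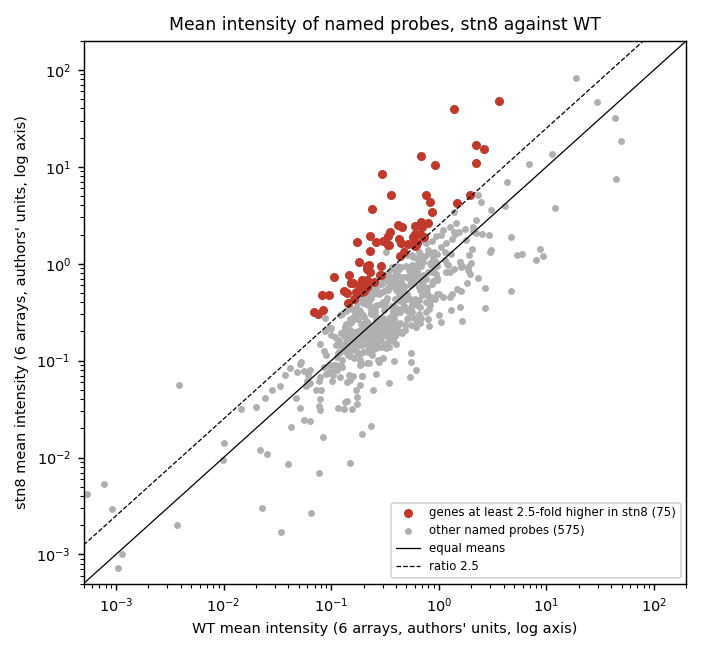
Each point is a probe that names 1 gene, with its mean over 6 stn8 arrays on the y axis and over 6 WT arrays on the x axis, both log axes in the authors' intensity units; means of 0 are not drawn. The 75 genes (red) lie on or above the dashed line at a ratio of 2.5, and grey points above that line are genes with a mean under 0.3 in stn8, at 0 on an array, or set aside by name.

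Ratios reached from 2.55 to 28.7, with a median of 4.01. They were at least 3 for 55 genes, at least 5 for 24 genes and at least 10 for 7 genes. In all 75 the lowest stn8 array lay above the highest WT array, a separation that 28.6% of all probes and 32.5% of the named probes showed in this direction. That lowest stn8 value was 1.60 to 21.0 times the highest WT value, with a median of 2.66, and it was at least 2 times that value for 63 genes.

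Just inside the ratio threshold were AT3G29185 and AT3G56010, both at 2.55, and AT1G65090 at 2.57. Just outside were AT4G38040 at 2.49, AT1G44920 at 2.48 and AT3G57440 at 2.47. PRA1.B3 passed the ratio at 3.11 but had a stn8 mean of 0.275.

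The spread among arrays of a group differed from gene to gene. The coefficient of variation over 6 arrays was 4.13% to 25.4% in stn8, with a median of 8.59%, and 5.54% to 71.2% in WT, with a median of 14.5%. For 537 other named probes above 0 on all arrays these medians were 11.8% in stn8 and 15.5% in WT. WT varied more than stn8 for 60 of the 75 genes and for 348 of the 537 others. The coefficient of variation divides by the mean, and the choice required a higher mean in stn8 than in WT. These contrasts with the other probes are therefore not independent of the choice of genes. Divided by its WT mean, the median gene stood at 3.74 to 4.18 on the 6 stn8 arrays and at 0.919 to 1.11 on the 6 WT arrays. The same median over all probes above 0 was 0.958 to 1.01 on stn8 arrays and 0.930 to 1.08 on WT arrays. These are the arrays whose means chose the genes, so the values describe that choice array by array. WT arrays 5 and 6 were the lowest of the 12, at 0.923 and 0.919. Without them the median ratio was 3.99, and 68 of the 75 genes still met the thresholds.

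**Figure D2:**
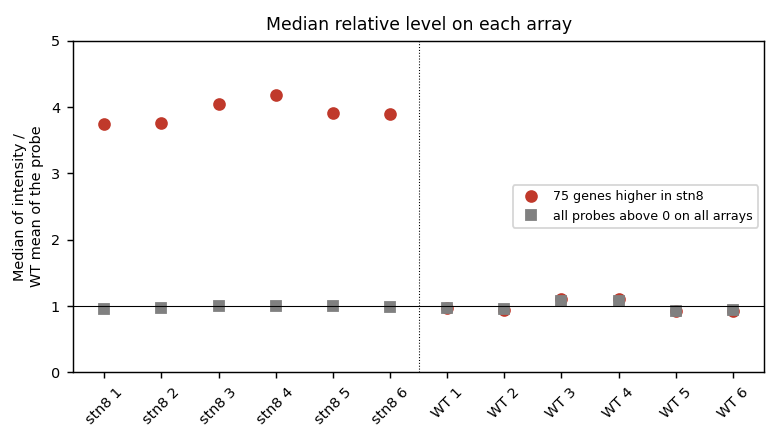
For each of the 12 arrays (x axis) the points give the median of intensity divided by the probe's WT mean, over the 75 genes (red circles) and over the 3079 probes above 0 on all arrays (grey squares). The stn8 arrays lie between 3.74 and 4.18 for the 75 genes, and all other medians lie between 0.919 and 1.11.

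The functions below are general knowledge about the encoded proteins. The probe annotation gives no descriptions, and the genes were sorted into roles after their values were seen. A role was given to 51 of the 75 genes.

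Among proteins of plastids and photosynthesis, 7 genes were present, with ratios of 2.55 to 11.4. The most different was AT4G27700, which encodes a rhodanese-domain protein, from a family that can transfer sulfur. Its intensity was 9.42 at the lowest, 10.6 at the median and 11.2 at the highest stn8 array, against 0.870, 0.926 and 1.0 in WT, a ratio of 11.4. AT1G76450 encodes a PsbP-domain protein of the thylakoid lumen, a relative of an extrinsic subunit of photosystem II. It measured 0.724, 0.771 and 0.827 in stn8, against 0.0897, 0.111 and 0.343 in WT. The WT maximum came from WT array 4, and the ratio of 5.25 was 7.16 without that array. AT4G24930, for another lumen protein, had 1.48, 1.57 and 1.68 in stn8, against 0.294, 0.336 and 0.406 in WT (ratio 4.56).

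The remaining 4 plastid genes had ratios of 2.55 to 3.0. AT4G13200, a protein of plastoglobules, the lipid droplets attached to thylakoids, averaged 0.513 ± 0.046 (SD, n = 6) in stn8 and 0.171 ± 0.0532 in WT. AT1G32220, an NAD(P)-binding protein also found in plastoglobules, averaged 0.396 ± 0.0439 in stn8 and 0.144 ± 0.0402 in WT. These ratios were 3.0 and 2.75. Without WT arrays 5 and 6 they were 2.52 and 2.42, the latter under the threshold of 2.5. AT1G74070, a peptidyl-prolyl isomerase of the cyclophilin type, averaged 1.19 ± 0.119 in stn8 and 0.437 ± 0.0787 in WT (ratio 2.73). AT3G29185, whose protein helps assemble the chloroplast ATP synthase, had the lowest ratio of all 75 genes, with 0.641 ± 0.0874 in stn8 and 0.251 ± 0.0257 in WT.

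Genes for organelle gene expression and RNA-related proteins numbered 9, with ratios of 2.59 to 13.1. AT4G09620 encodes a member of the mTERF family, proteins of mitochondria and chloroplasts that act on organelle transcription and transcripts. It was at 40.8, 48.7 and 53.9 (lowest, median, highest) in stn8, against 2.64, 3.69 and 4.65 in WT. Its ratio was 13.1. AT4G26370, with a NusB domain known from bacterial antitermination of transcription, had 1.43, 1.72 and 1.90 in stn8, against 0.235, 0.298 and 0.381 in WT (ratio 5.65).

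Pentatricopeptide repeat proteins, which bind organelle RNA in editing, splicing and stabilisation, were encoded by 4 genes. AT3G49740 averaged 2.63 ± 0.315 in stn8 and 0.786 ± 0.0951 in WT (SD, n = 6 each), AT1G31790 averaged 2.02 ± 0.226 in stn8 and 0.674 ± 0.0883 in WT, and AT5G15280 averaged 1.87 ± 0.246 in stn8 and 0.723 ± 0.0878 in WT. AT3G13150 averaged 4.26 ± 0.398 in stn8 and 1.49 ± 0.18 in WT. Their ratios ranged from 2.59 to 3.34, where the choice of genes set a minimum of 2.5. AT3G16760, with tetratricopeptide repeats, averaged 0.937 ± 0.0548 in stn8 and 0.290 ± 0.045 in WT. Methyltransferases that use S-adenosylmethionine were AT3G27180 (0.472 ± 0.0283 in stn8 and 0.0950 ± 0.0259 in WT) and AT5G53920, related to enzymes that modify a ribosomal protein (0.570 ± 0.0464 in stn8 and 0.216 ± 0.0337 in WT).

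For mitochondrial respiration there were 2 genes. AT5G47890 encodes a subunit of complex I of the respiratory chain and measured 0.841, 0.951 and 1.02 in stn8, against 0.180, 0.208 and 0.280 in WT (ratio 4.38). AT5G67490 encodes an assembly factor of succinate dehydrogenase, complex II, and measured 0.576, 0.618 and 0.707 in stn8, against 0.137, 0.152 and 0.190 in WT (ratio 4.11).

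Recognition and signalling proteins formed a set of 7 genes with ratios of 3.98 to 28.7. AT3G12000 had the highest ratio of all. Its protein is related to the S-locus glycoproteins, secreted proteins that in *Brassica* take part in self-incompatibility between pollen and stigma. Intensity was 37.6, 40.5 and 41.3 in stn8, against 0.941, 1.35 and 1.93 in WT, a ratio of 28.7. AT2G31800, a protein kinase with ankyrin repeats, had 3.39, 3.65 and 3.94 in stn8, against 0.166, 0.218 and 0.333 in WT, a ratio of 15.3.

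Disease resistance proteins of the TIR-NBS type, which carry the signalling and nucleotide-binding domains of intracellular immune receptors, were encoded by AT3G04210 and AT1G72890. AT3G04210 was at 10.2, 10.7 and 11.9 in stn8, against 1.91, 2.20 and 2.5 in WT (ratio 4.94). AT1G72890 was at 0.454, 0.509 and 0.610 in stn8, against 0.0764, 0.138 and 0.183 in WT (ratio 3.98). In both genes the lowest stn8 array lay above the highest WT array, as for all 75. AT3G25840 encodes a kinase associated with the splicing machinery and averaged 0.981 ± 0.082 in stn8 and 0.226 ± 0.0525 in WT. AT3G57120, of the protein kinase superfamily, averaged 2.42 ± 0.105 in stn8 and 0.601 ± 0.044 in WT. AT2G21530 carries an FHA domain, which binds phosphorylated threonine, and averaged 1.81 ± 0.112 in stn8 and 0.425 ± 0.0278 in WT.

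Trafficking, the nuclear pore, the cytoskeleton and related scaffold proteins accounted for 7 genes, with ratios of 2.63 to 8.40. AT4G01810, of the Sec23/Sec24 family that forms the coat of vesicles leaving the endoplasmic reticulum, had 1.74, 1.86 and 2.16 in stn8, against 0.196, 0.234 and 0.239 in WT (ratio 8.40). AT2G28390, MON1, acts in transport to the vacuole and is widely used as a reference gene in plant quantitative PCR because its transcript level is regarded as stable. Here it measured 1.35, 1.54 and 1.85 in stn8, against 0.256, 0.343 and 0.395 in WT, a ratio of 4.66. Each stn8 array was thus at least 3.43 times the highest WT array for this gene.

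SEH1H, a nucleoporin of the nuclear pore scaffold, averaged 0.630 ± 0.0365 in stn8 and 0.160 ± 0.0173 in WT (ratio 3.93). AT4G14330, a kinesin of the phragmoplast, the structure that builds the new wall in dividing cells, averaged 0.680 ± 0.0302 in stn8 and 0.194 ± 0.0382 in WT. WD-repeat proteins, which serve as scaffolds, were AT1G24530 at 0.336 ± 0.0519 in stn8 and 0.0838 ± 0.0278 in WT, and AT3G51930 at 0.770 ± 0.069 in stn8 and 0.291 ± 0.115 in WT. AT2G39100, a RING/U-box protein of the type that transfers ubiquitin, averaged 5.15 ± 0.322 in stn8 and 1.96 ± 0.262 in WT (ratio 2.63).

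Cell wall and secreted proteins were encoded by 5 genes, with ratios of 3.11 to 6.69. AT1G35510 belongs to the O-fucosyltransferase family and had 4.83, 5.20 and 5.4 in stn8, against 0.687, 0.764 and 0.859 in WT (ratio 6.69). AT4G18180 resembles polygalacturonases, enzymes that cut pectin, and had 13.4, 15 and 18.3 in stn8, against 2.32, 2.66 and 2.95 in WT (ratio 5.84). CSLA01 belongs to the cellulose synthase-like A family, whose members make the mannan backbone of glucomannans. It measured 2.53, 2.70 and 2.96 in stn8, against 0.526, 0.719 and 0.802 in WT (ratio 3.99). AT5G62360, of the pectin methylesterase inhibitor family, averaged 1.89 ± 0.141 in stn8 and 0.578 ± 0.0824 in WT. AT2G48130, a lipid transfer protein, averaged 0.673 ± 0.0581 in stn8 and 0.216 ± 0.0225 in WT.

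Membrane transport was represented by 3 genes that differed widely in ratio. AT1G02260, a divalent ion symporter, was at 11.8, 12.9 and 13.8 in stn8, against 0.601, 0.695 and 0.754 in WT. Its ratio was 18.7, and its lowest stn8 array was 15.6 times its highest WT array. AT2G47830, a cation efflux protein, measured 0.617, 0.782 and 0.881 in stn8, against 0.239, 0.286 and 0.340 in WT (ratio 2.70). AT2G02590, of a small multidrug export family, measured 1.55, 1.61 and 1.87 in stn8, against 0.524, 0.605 and 0.732 in WT (ratio 2.64).

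Metabolic enzymes and oxidoreductases made up the largest role with 11 genes and ratios of 2.61 to 9.71. AT3G04650, an oxidoreductase that binds FAD and NAD(P), had 1.46, 1.70 and 1.90 in stn8, against 0.109, 0.165 and 0.246 in WT (ratio 9.71). AT4G29890 resembles choline monooxygenase, which in spinach makes the precursor of glycine betaine, and was at 14.1, 17.0 and 19.0 in stn8, against 1.93, 2.18 and 2.45 in WT (ratio 7.48). AT2G27680, an NAD(P)-linked oxidoreductase, was at 1.86, 2.13 and 2.37 in stn8, against 0.246, 0.348 and 0.419 in WT (ratio 6.04). In these 3 genes the groups were far apart, with the lowest stn8 array at least 4.43 times the highest WT array.

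AT2G35390 encodes a phosphoribosyl pyrophosphate synthetase, which supplies the sugar phosphate for nucleotide synthesis, and averaged 1.94 ± 0.154 in stn8 and 0.335 ± 0.0238 in WT (ratio 5.80). AT5G10920 encodes argininosuccinate lyase, the last enzyme of arginine synthesis, and averaged 2.38 ± 0.333 in stn8 and 0.697 ± 0.266 in WT (ratio 3.41). Its WT arrays were spread from 0.357 to 0.988, with arrays 5 and 6 the lowest at 0.379 and 0.357. Without them its ratio was 2.76. Sugar-related enzymes were AT1G06730, a carbohydrate kinase of the pfkB type, at 0.638 ± 0.0574 in stn8 and 0.151 ± 0.0135 in WT, and AT5G66530, similar to galactose mutarotase, at 0.535 ± 0.0665 in stn8 and 0.185 ± 0.0401 in WT. AT1G01500, of the erythronate phosphate dehydrogenase family, averaged 1.61 ± 0.108 in stn8 and 0.519 ± 0.102 in WT. The hydrolase folds were AT4G33540, with a metallo-beta-lactamase fold, and the alpha/beta hydrolases AT2G03140 and AT5G19050, with ratios of 3.41, 3.30 and 2.61.

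**Figure D3:**
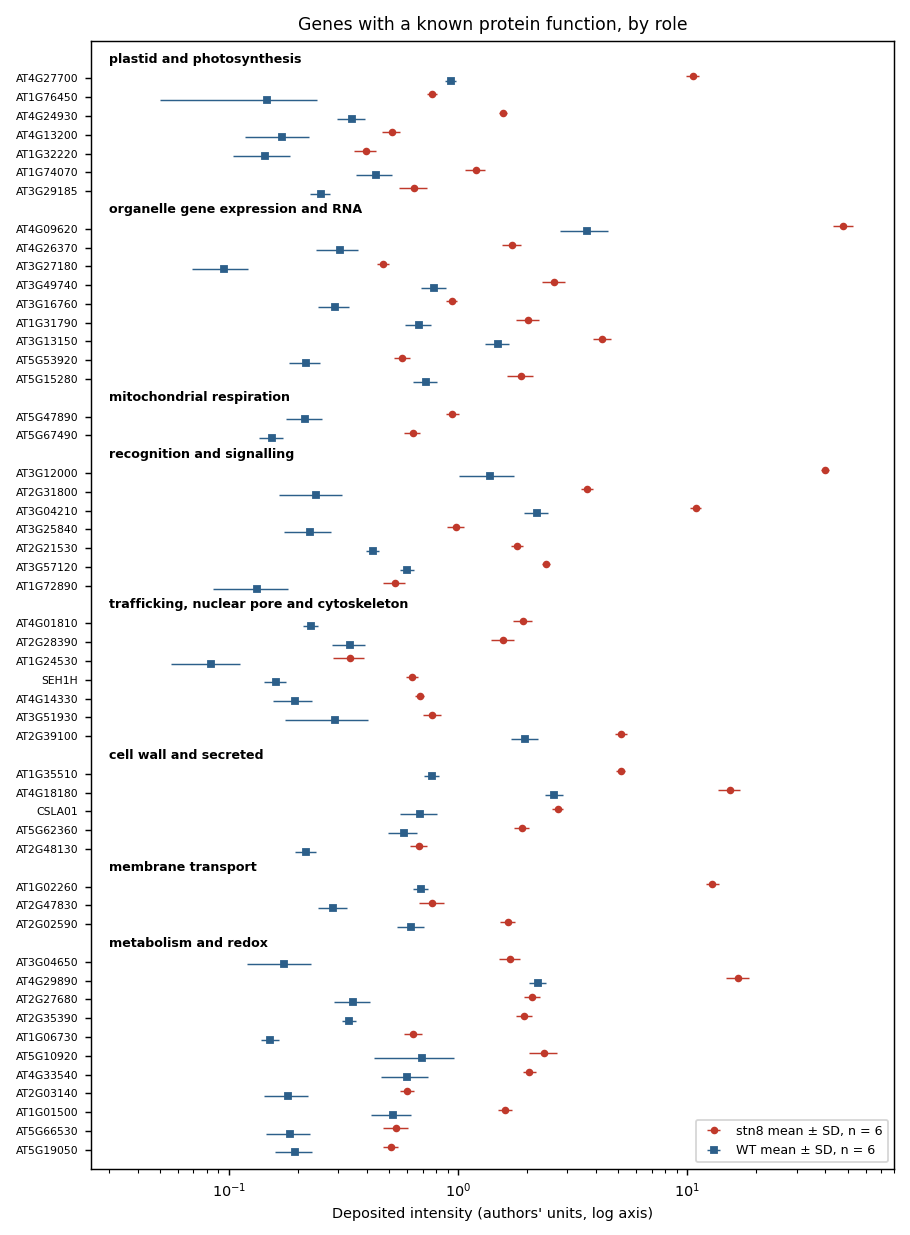
Mean intensity with its SD over 6 arrays is drawn on a log axis for the 51 genes with a role, sorted by role, for stn8 (red circles) and WT (blue squares). The stn8 mean lies to the right of the WT mean in every row.

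No role is given here for the other 24 genes, whose ratios ran from 2.55 to 28.2 with a median of 4.06. AT2G18920 had 7.47, 8.40 and 9.12 in stn8, against 0.254, 0.299 and 0.357 in WT, and its lowest stn8 array was 21.0 times its highest WT array, the widest gap among the 75 genes. AT5G06990 had 4.56, 5.20 and 5.44 in stn8, against 0.324, 0.353 and 0.412 in WT (ratio 14). AT1G73120 had 0.642, 0.731 and 0.813 in stn8, against 0.0857, 0.109 and 0.120 in WT (ratio 6.85). As for all 75 genes, the lowest stn8 array of each lay above the highest WT array.

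Ratios from 5.15 to 6.5 were found for AT5G17280, AT1G17744, AT2G20920, AT3G52550, AT1G32160, AT4G20300 and AT3G61870. AT3G61870 averaged 4.31 ± 0.222 in stn8 and 0.837 ± 0.0692 in WT. Ratios from 3.51 to 4.60 were found for AT5G66090, AT5G66780, AT1G49870, AT5G46560, AT1G01730, AT2G01400 and AT3G60590. AT1G49870, just past the minimum of 0.3 in stn8, averaged 0.30 ± 0.0349 in stn8 and 0.0748 ± 0.0183 in WT, and AT5G66090 averaged 0.321 ± 0.0557 in stn8 and 0.0698 ± 0.0152 in WT. Ratios from 2.55 to 2.81 were found for AT2G21960, AT1G27610, AT5G24690, AT5G56070, AT1G50020, AT1G65090 and AT3G56010. The closest groups were those of AT5G24690, with 0.491 on the lowest stn8 array and 0.308 on the highest WT array.

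**Figure D4:**
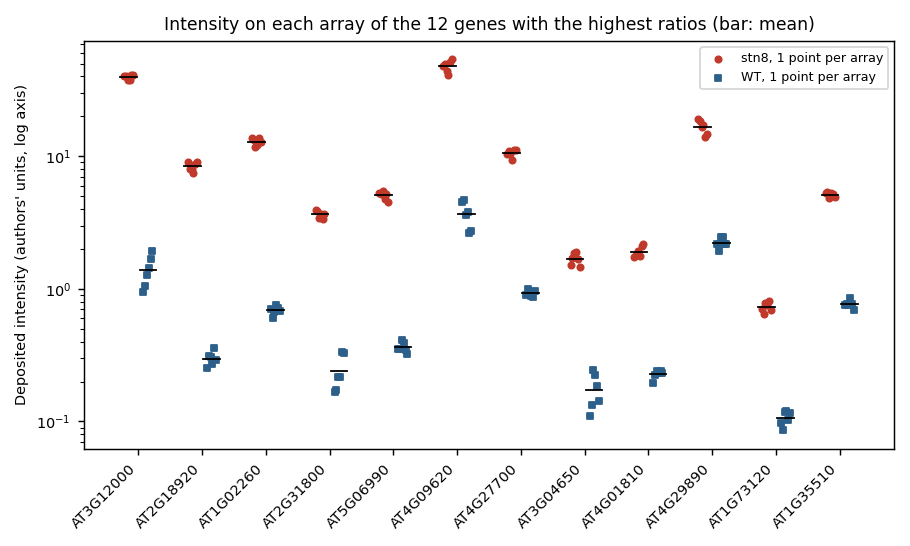
Deposited intensity on each array (log axis) of the 12 genes with the highest ratios, from AT3G12000 at 28.7 to AT1G35510 at 6.69; points are the 6 stn8 arrays (red circles) and the 6 WT arrays (blue squares), and bars are means. In each gene the 6 stn8 points lie above the 6 WT points.

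A second measurement existed for 7 of the 75 genes. These genes were also named, together with 1 or 2 related loci, by another probe that played no part in the choice of genes. With such a probe it is not known which of the loci it reports. The differences at these probes were smaller and went both ways. Only the gene's own probe was chosen for a ratio of at least 2.5, so a smaller difference at the second probe can follow from that choice. In limma, 3 of the 7 second probes were higher in stn8, 1 was lower and 3 did not pass, where 34.7% of all probes were called higher and 35.8% lower.

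The second probe of AT1G24530, shared with AT1G24130 and AT5G50120, averaged 1.15 ± 0.0506 in stn8 and 0.511 ± 0.0585 in WT (SD, n = 6 each), a ratio of 2.25 where the gene's own probe gave 4.01. Its log2 fold change was 0.98 ± 0.04 (SE, limma adjusted p = 1.51e-09). For AT1G32160, the second probe, shared with AT1G48450 and AT3G17800, averaged 0.211 ± 0.0366 in stn8 and 0.119 ± 0.02 in WT (ratio 1.77 against 5.64, log2 fold change 1.09 ± 0.12, limma adjusted p = 5.75e-06). For AT2G21960, the second probe, shared with AT1G56180, averaged 0.778 ± 0.083 in stn8 and 0.428 ± 0.101 in WT (ratio 1.82 against 2.81, log2 fold change 0.72 ± 0.12, limma adjusted p = 2.16e-04). In these 3 cases all 6 stn8 arrays lay above all 6 WT arrays on the second probe too, as for 28.6% of all probes.

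The second probe of AT5G06990, shared with AT4G39610 and AT2G21990, was lower in stn8, at 0.373 ± 0.0409 against 0.621 ± 0.126 in WT. Its ratio was 0.602 and its log2 fold change -0.84 ± 0.16 (limma adjusted p = 5.15e-04), while the gene's own probe gave a ratio of 14. The second probe of AT1G35510, shared with AT1G14970 and AT2G01480, averaged 1.84 ± 0.278 in stn8 and 1.80 ± 0.269 in WT. Its ratio was 1.02, against 6.69 for the gene's own probe, and its log2 fold change was -0.24 ± 0.12 (limma adjusted p = 0.0872), or 0.03 without normalization between arrays. With the sample number as a replicate block it was called lower (limma adjusted p = 2.27e-03), as it was with cyclic loess (0.0398), without stn8 array 6 (0.0455) and without WT array 1 (0.0329). For AT5G56070, the second probe, shared with AT5G56050 and AT4G26490, averaged 1.48 ± 0.18 in stn8 and 1.37 ± 0.0921 in WT (ratio 1.08, log2 fold change -0.16 ± 0.07, limma adjusted p = 0.0679). This fold change was 0.11 without normalization and 0.06 with median centring, and the probe was called lower with cyclic loess (limma adjusted p = 0.0423), without stn8 array 6 (4.78e-03) and without WT array 1 (0.0404). The second probe of AT3G60590 was listed at 0 on all stn8 arrays and at or near 0 in WT, and gave no ratio.

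**Figure D5:**
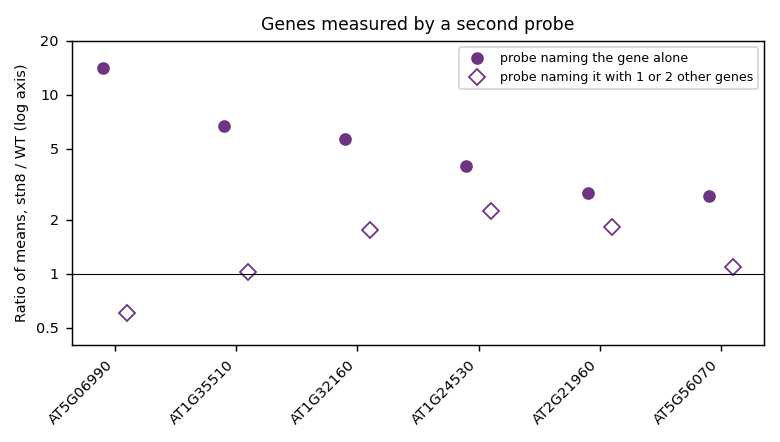
For 6 genes the ratio of the stn8 mean to the WT mean is drawn on a log axis for the probe that names the gene alone (filled circles, 2.71 to 14) and for the probe that names it with 1 or 2 other loci (open diamonds, 0.602 to 2.25). In each of the 6 the second probe has the lower ratio, and the line marks equal means. Only the probe that names the gene alone was chosen for a ratio of at least 2.5.

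The neighbourhood of the spots was also described. Within 4 spot numbers of a spot with a mean above 10 in stn8 lay 11 of the 75 genes (14.7%) and 43 of the 537 other named probes above 0 (8.01%). For spots above 10 in WT the counts were 8 (10.7%) and 25 (4.66%). Of the 75 genes, 12 lay within 4 spot numbers of another of the 75, so a counted neighbour can itself be a chosen gene. The spot next to AT2G18920 measured 3.45 in stn8 and 25.7 in WT, and the spot 2 numbers from AT2G31800 measured 1.54 in stn8 and 13 in WT. Near AT1G72890 and AT1G32220 too the neighbour was higher in WT, at 4.07 in stn8 and 45.4 in WT and at 6.04 in stn8 and 44.6 in WT. Other neighbours were higher in stn8, as the genes themselves were. They measured 83.5 in stn8 and 18.7 in WT near AT1G17744, 34.7 in stn8 and 11.6 in WT near AT4G29890, and 26.5 in stn8 and 5.78 in WT near AT4G13200. Near AT3G60590 the neighbour was AT3G04210, itself among the 75 genes chosen for a higher stn8 mean, at 10.9 in stn8 and 2.20 in WT. Near AT2G03140 the neighbour measured 10.9 in stn8 and 3.31 in WT. Near AT4G01810 it was 11.2 in stn8 and 5.76 in WT, and near AT1G76450 10.7 in stn8 and 6.87 in WT. AT4G09620 and SEH1H lay 3 and 4 spots from a spot that measured 12.96 in stn8 and 5.36 in WT. AT2G27680 and AT2G21530 lay on spots 1 number apart, and the spot beside them measured 31.6 in stn8 and 43.6 in WT. AT3G12000, AT1G02260, AT4G27700 and AT4G18180 had no spot above 10 in either group that near. The part of bright neighbours in these ratios was not tested. In the genome the genes were scattered, with 2 pairs separated by at most 20 protein-coding genes in the TAIR10.1 gene table. AT1G32160 and AT1G32220 had 5 such genes between them, and AT1G49870 and AT1G50020 had 15.

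Keywords of function were searched in the symbols and synonyms of the 692 named genes. The search matched 1 of the 75 genes, CSLA01, and 39 genes that did not meet the thresholds, so these 39 leave out the named genes of the highest ratios and are not a sample of the 75 genes' functions. Of these 39, 10 were higher in stn8, 18 were lower and 11 did not pass limma, where 34.7% of all probes were higher and 35.8% lower. Their log2 fold changes had a median of -0.21, against 0 over all probes. Among cell wall genes, CSLA01 stood beside 4 endoglucanases of the GH9B family, of which 1 was higher and 3 were lower in stn8. GH9B12 averaged 0.0382 ± 0.01 in stn8 and 0.140 ± 0.0208 in WT (log2 fold change -1.24 ± 0.15, limma adjusted p = 1.63e-05), and GH9B11 averaged 0.147 ± 0.00947 in stn8 and 0.322 ± 0.0175 in WT (-1.04 ± 0.07, limma adjusted p = 1.11e-07). Of 5 genes matched for photosynthesis and plastid structure 3 were lower and 2 did not pass. Of 6 matched for redox 1 was higher and 5 were lower (median log2 fold change -0.93). Of 5 matched by the words for kinases, phosphatases and receptors 1 was higher and 3 were lower (-1.73). These 5 were GLR2.7, PPDK, CML30, SBPASE and PRK. PPDK, SBPASE and PRK are enzymes of carbon metabolism, so this group does not stand for signalling kinases. Of 4 matched for protein folding, turnover and sorting 2 were higher and 1 was lower, and of 4 for transcription and chromatin 2 were higher and 2 did not pass. Of the latter 2, AT5G65360 had a mean of 0 in both groups. Of 10 other metabolic enzymes 3 were higher and 2 were lower. The 2 lower ones, GLX2-1 and Z-ISO, had a mean of 0 in stn8, and UPP had a mean of 0 in both groups. Of the 3 higher ones, CKS was dim, with a mean of 0.0977 in stn8 and 0.0525 in WT (ratio 1.86). Its log2 fold change was 2.56 ± 0.80 (SE, limma adjusted p = 0.0134). The 1 gene matched for RNA processing and translation, AT5G55580, was slightly lower. It averaged 0.428 ± 0.0422 in stn8 and 0.472 ± 0.0267 in WT (log2 fold change -0.26 ± 0.07, limma adjusted p = 8.94e-03).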

How the data were processed

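Expression was measured on 12 arrays, 6 stn8 and 6 WT. The deposited intensity values hold no negative numbers and are taken as linear from their range. The sources used here do not give what the authors did for background and scaling, and array medians differed by 0.311 on the log2 scale. Of 3439 rows 2 held no value. Probes were named from the platform annotation when they had 1 gene symbol (692, of which 690 matched TAIR10.1). No protein or promoter sequence was used here.

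Means, SDs and ratios use the deposited intensities. For the tested probes, a zero took the array's lowest value above 0, and log2 values were quantile normalized and compared with limma 3.58.1 in R 4.3.3 (two-sided, Benjamini-Hochberg over 3437 probes), tested on simulated data. The number of arrays limits the precision. Genes, lists and roles were chosen with earlier results of these data known. All 75 genes are named, with array values for those of highest ratio, highest stn8 mean and the leading genes of each role.

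Deviations from the group mean correlated between the stn8 and WT samples of one number (r of 0.170 to 0.333 in 6 pairs, against -0.284 to 0.286 between different numbers), so the number was tried as a block. Each of the 12 arrays had its highest r within its group with the array of the neighbouring number. The 6 arrays of a group may thus not be independent, and neighbouring numbers were also averaged. The other alternatives were no normalization, median centring, cyclic loess, a pseudocount of 0.0585, removal of dim probes, other thresholds and leaving out arrays.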

Additional observations from a re-analysis of the deposited data

Results flagged for a closer look

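In 7 of 154 groups of 6 values, 1 array stood far from the others by Dixon's criterion, which chance alone meets in about 1 of 20 groups. AT1G76450 was at 0.343 on WT array 4, the widest gap of the 7. AT4G01810 was at 0.196 on WT array 1, AT2G03140 at 0.106 on WT array 5, and on WT array 6 AT5G67490 was at 0.190 and AT3G29185 at 0.30. In stn8, AT3G52550 was at 0.415 on array 2 and AT2G48130 at 0.784 on array 6.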

How the results depend on the processing

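The count of 75 genes was 126 with a ratio of at least 2 and lay between 55 and 80 in the other settings, with 67 after quantile normalization (65 of them among the 75) and 71 with values divided by the array median. Leaving out 1 array gave 74 to 80 genes and median ratios from 3.93 to 4.11. Without WT arrays 5 and 6, an alternative chosen after seeing the data, 72 genes met the thresholds, 68 of them among the 75. No ratio of a gene moved by more than 1.40-fold when arrays were left out, values rescaled or medians used, and 18 of 75 moved by more than their replicate spread after quantile normalization. Limma called 2421 probes, and 2477 with the sample number as a replicate block, 2414 without normalization, 2011 with neighbouring numbers averaged, 2494 without WT arrays 5 and 6, and 2342 to 2421 without 1 array. The called genes outside the thresholds were 28 of 39, and 23 with neighbouring numbers averaged, 28 with the block and 26 to 29 without 1 array. Among the second probes and the probes of GH9B11 and GH9B12, the block changed only the call of the second probe of AT1G35510. With neighbouring numbers averaged, the limma adjusted p of the second probe was 2.27e-04 for AT1G24530 and 1.03e-04 for AT1G32160. It was 0.0157 for AT2G21960 and 0.0263 for AT5G06990. Signs turned for the second probe of AT1G35510 without normalization (0.0318), and for that of AT5G56070 without normalization (0.11) and with median centring (0.0576); the cause was not tested. The correlation of the groups at the same spot was 0.734 over probes above 0 on all arrays, which leaves out the zeros. In windows of 50 spot numbers the same spot gave the highest r in 88 of 92.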
